A study of Rattus norvegicus with 6 samples.

Results

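Megalin-dependent endocytosis and the lysosome were followed in rat kidney cortex through 39 listed genes: 8 receptors and parts of the endocytic machinery, 7 proteases, 11 hydrolases of glycans and sulfate esters, 6 lumenal proteins that act on lipids, 6 membrane proteins and the transcription factor gene Tfeb. They were found by the accession of each microarray probe, which named 61 probes of 37 of these genes. Naglu and Sgsh were matched to no probe and are not analysed here. The probe used for each of the 37 was well above background on all 6 arrays, so all 37 passed the filter on dim probes, and they are 37 of 31637 genes and unnamed transcripts tested. The animals were male Sprague-Dawley rats, Crl:CD(SD), bought when 5 weeks old. The vehicle, corn oil, was given to 3 of them, and the other 3 were given 200 mg/kg/day of tricresyl phosphate, in both cases over 4 weeks. Tricresyl phosphate belongs to the organophosphate esters, which serve as plasticisers and flame retardants. The comparison asks which transcripts of the cortex differ between the treated and the vehicle animals.

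The proximal tubule of the cortex takes up nearly all protein that passes the glomerular filter. Megalin and cubilin bind it at the apical membrane, clathrin-coated vesicles carry it through endosomes, and the receptors return to the surface while the cargo goes on to lysosomes. There, acid hydrolases break proteins, glycans and lipids down, and an inherited lack of a single one causes a storage disease. Tfeb is known to switch on many of these genes at once, by binding an E-box motif in their promoters.

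No gene of endocytosis or the lysosome differed between the groups past the threshold. At a limma p adjusted over all genes under 0.05, 0 of the 37 members and 0.00% of all genes tested were called. At an unadjusted limma p under 0.05 there were 2 members, or 5.41%, and 5.49% of all genes. Arsa was the 1 higher member (1.63% of all genes were higher) and Arsb the 1 lower member (3.86% of all genes were lower). The share of members was near the background. Adjusted limma p-values of the members lay between 0.811 and 0.996. The animals of the groups did not overlap in 6 members, or 16.2%, against 11.8% of all genes. Tricresyl phosphate lay above corn oil in 4 of them (Dab2, Tpp1, Arsa and Scarb2), or 10.8%, against 3.85% of all genes, and below in 2 (Arsb and Rab7a), or 5.41%, against 7.95%. Of the 37 members 19 were higher and 18 lower. Their median difference was 0.004 log2 units, against −0.038 over all genes.

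The intervals bound how large a difference could have been missed. The 95% interval of the limma fit lay inside 2-fold in either direction for all 37 members and inside 1.5-fold for 34. The lowest bound of any member was 0.664-fold, for Arsb, and the highest 1.63-fold, for Dab2. The replicate spread, pooled over both groups, had a median of 0.121 log2 units over the members, 0.168 over all genes and 0.107 over the brightest 20% of genes. Among the members it ran from 0.024 for Rab7a to 0.284 for Lgmn.

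**Figure D1:**
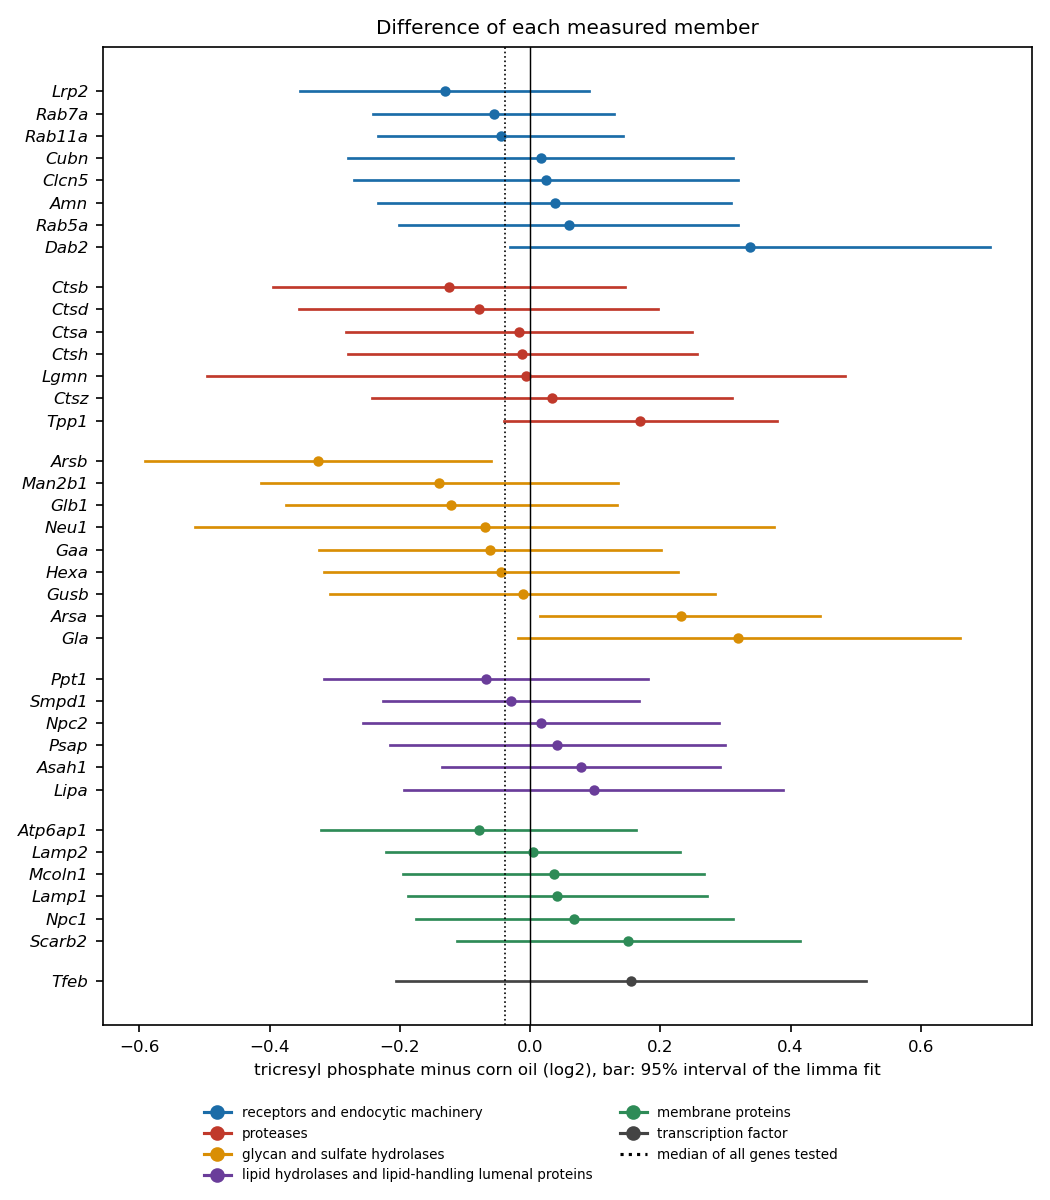
Difference between the groups for each of the 37 measured members (x axis, tricresyl phosphate minus corn oil in log2 units), grouped and coloured by role. Points are limma estimates from 3 against 3 animals, bars their 95% intervals, and the dotted line is the median of all genes tested, −0.038. The bars of Arsb and Arsa alone leave out 0.

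The receptor itself was measured well. A level is the log2 processed signal after subtraction of the array's 75th percentile. Lrp2, which encodes megalin, was at 6.45, 6.53 and 6.45 in the corn oil animals and at 6.47, 6.31 and 6.27 in the tricresyl phosphate animals. The groups overlapped through the first treated animal, while the other 2 treated animals lay below all 3 vehicle animals. The difference was −0.13 ± 0.091 (SE) with a limma p of 0.199 (adjusted 0.814). The 95% interval ran from 0.783-fold to 1.06-fold. A further Lrp2 probe differed by −0.086. It was at 5.92, 5.72 and 5.80 with corn oil and at 5.68, 5.69 and 5.80 with tricresyl phosphate. On that probe the first 2 treated animals lay below the vehicle range and the third within it.

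Cubilin and its anchor did not separate the groups. Cubn was at 5.91, 5.53 and 5.84 with corn oil and at 5.74, 5.81 and 5.79 with tricresyl phosphate. The spread lay in the vehicle animals, where replicate 2 was the lowest of all 6. The difference was 0.017 ± 0.12 (SE), adjusted limma p 0.981. Amn, which encodes amnionless, the membrane anchor that brings cubilin to the surface, was at 5.96, 5.83 and 5.78 with corn oil and at 6.06, 5.86 and 5.76 with tricresyl phosphate. The treated animals held both the highest and the lowest value of all 6, and the difference was 0.038 ± 0.11 (SE), adjusted limma p 0.951.

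Dab2 had the largest difference of any member. It encodes the adaptor that links the tail of megalin to clathrin. Its level was 5.03, 4.93 and 4.70 in the vehicle animals and 5.03, 5.16 and 5.47 in the treated animals. The highest vehicle animal (5.031) lay just below the lowest treated animal (5.034), and the third treated animal was well above the rest. The difference was 0.34 ± 0.15 (SE), 1.26-fold, with a limma p of 0.0661 (adjusted 0.811). The other Dab2 probe gave 2.57, 2.68 and 2.53 with corn oil and 2.79, 2.92 and 3.26 with tricresyl phosphate, a difference of 0.397 with an unadjusted limma p of 0.0289. On that probe the gap between the groups was wider. Without tricresyl phosphate replicate 3 the difference on the brighter probe was 0.213.

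The vesicle genes lay close to 0. Clcn5, the chloride-proton exchanger of endosomes that is lost in Dent disease, differed by 0.025 ± 0.12 (SE). The small GTPase genes Rab5a, of early endosomes, and Rab11a, of recycling endosomes, differed by 0.059 ± 0.11 and −0.045 ± 0.077 (SE). The 3 probes of Rab11a ran from −0.10 to 0.10. Rab7a, the GTPase of late endosomes, was at 1.59, 1.58 and 1.53 with corn oil and at 1.509, 1.516 and 1.503 with tricresyl phosphate. All 3 treated animals lay below all 3 vehicle animals, yet the gap was small, −0.056 ± 0.076 (SE), 0.962-fold, with an adjusted limma p of 0.887. Over the 8 receptor and endocytosis genes the median difference was 0.021, with 5 higher and 3 lower.

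**Figure D2:**
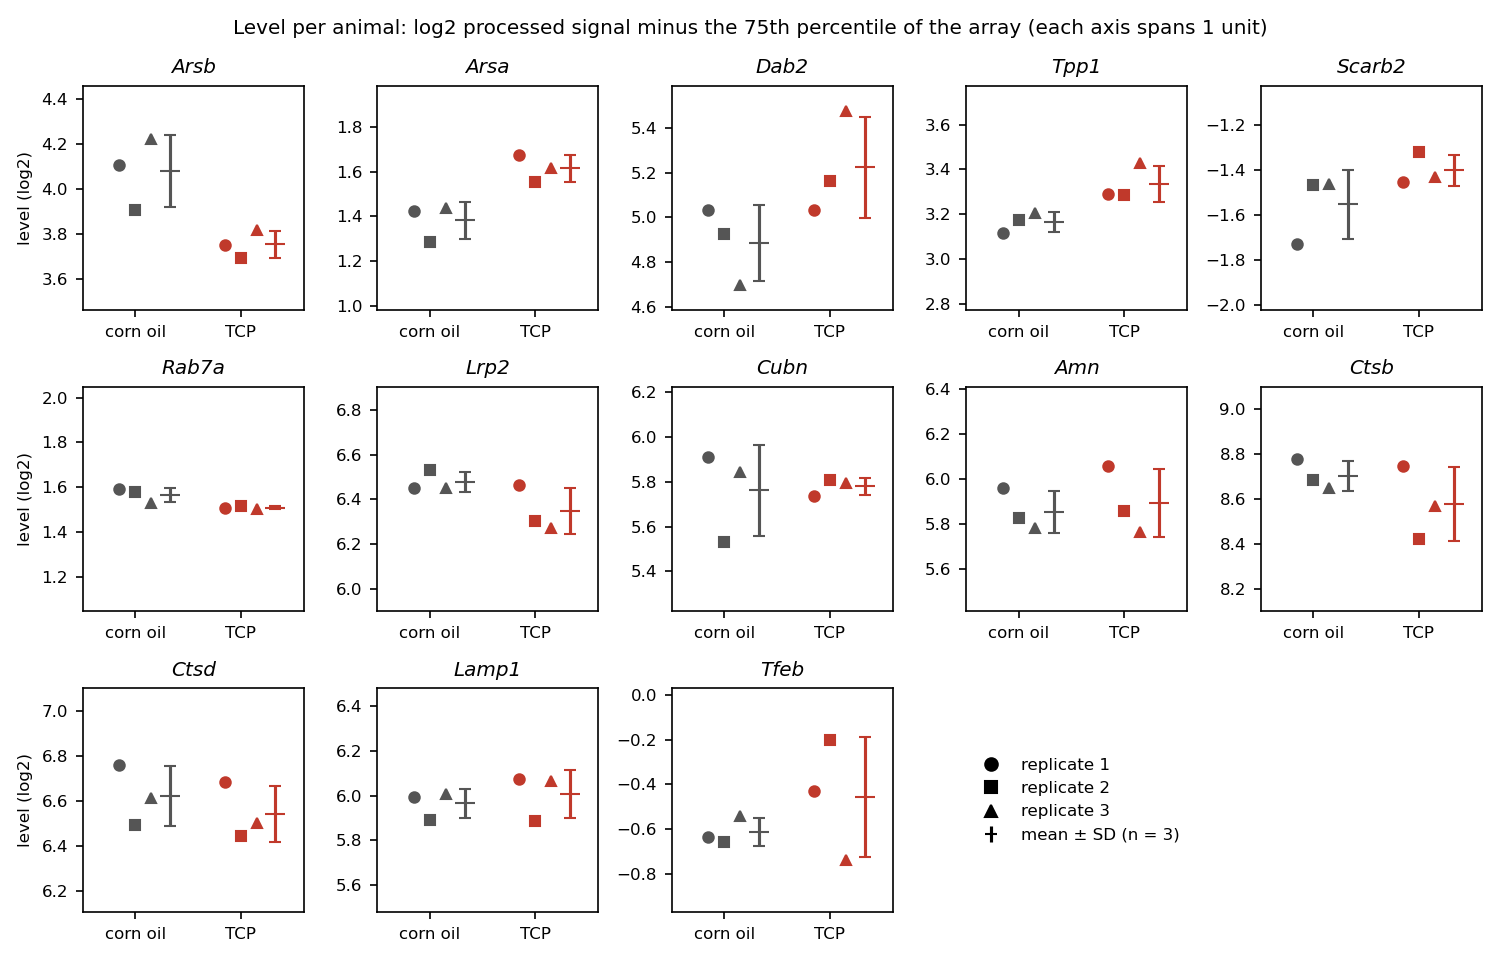
Level in each animal (y axis, log2 processed signal minus the 75th percentile of the array, each panel spanning 1 unit) for 13 members, with corn oil in grey and tricresyl phosphate (TCP) in red. Marker shapes give the replicate number and the bars the mean ± SD of 3 animals; Arsb, Arsa, Dab2, Tpp1, Scarb2 and Rab7a do not overlap between the groups, and the groups overlap in the other panels.

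Lysosomal proteases showed no shared direction. Of 7 measured, 2 were higher and 5 lower, with a median of −0.012. Ctsb, a cysteine protease, was at 8.78, 8.68 and 8.65 with corn oil and at 8.75, 8.42 and 8.57 with tricresyl phosphate. Treated replicates 2 and 3 lay below the vehicle range, and the difference was −0.125 ± 0.11 (SE), adjusted limma p 0.837. Ctsd, the main aspartic protease of lysosomes, was at 6.76, 6.495 and 6.61 with corn oil and at 6.685, 6.45 and 6.501 with tricresyl phosphate. The groups overlapped, and the difference was −0.079 ± 0.11 (SE), adjusted limma p 0.894.

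Tpp1 was the protease whose groups did not overlap. It encodes tripeptidyl peptidase 1, which is lacking in a form of neuronal ceroid lipofuscinosis. Its level was 3.12, 3.17 and 3.21 with corn oil and 3.29, 3.285 and 3.43 with tricresyl phosphate. Every treated animal lay above every vehicle animal, and the difference was 0.17 ± 0.086 (SE), 1.12-fold, with a limma p of 0.0954 (adjusted 0.811). The dimmer Tpp1 probe differed by 0.18, with groups that overlapped. Ctsa, which encodes the carboxypeptidase that protects neuraminidase and beta-galactosidase, and Ctsh, an aminopeptidase, differed by −0.017 ± 0.11 and −0.012 ± 0.11 (SE). Ctsz differed by 0.034 ± 0.11 (SE). Lgmn, the asparaginyl endopeptidase that matures cathepsins, differed by −0.007 ± 0.20 (SE) and varied most between animals, from 6.22 to 6.74 with corn oil and from 6.20 to 6.79 with tricresyl phosphate.

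Both arylsulfatase genes separated the groups, in opposite directions. Arsb encodes arylsulfatase B, which removes sulfate from dermatan and chondroitin sulfate and is lacking in mucopolysaccharidosis type VI. It was at 4.11, 3.91 and 4.22 with corn oil and at 3.75, 3.695 and 3.82 with tricresyl phosphate. All 3 treated animals lay below all 3 vehicle animals. The difference was −0.33 ± 0.11 (SE), 0.798-fold with a 95% interval from 0.664 to 0.96, and the limma p was 0.024 (adjusted 0.811). By p it was number 786 of the 31637 genes. The dimmer Arsb probe differed by −0.255, with groups that overlapped and an unadjusted limma p of 0.143.

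Arsa encodes arylsulfatase A, which splits sulfatide and is lacking in metachromatic leukodystrophy. It was at 1.42, 1.29 and 1.44 with corn oil and at 1.67, 1.55 and 1.615 with tricresyl phosphate, so all treated animals lay above all vehicle animals. The difference was 0.23 ± 0.088 (SE), 1.17-fold with an interval from 1.01 to 1.36, and the limma p was 0.0394 (adjusted 0.811). Its other probes differed by 0.18 and 0.196, and on each of the 3 probes the groups did not overlap. Neither arylsulfatase held under all settings. Arsb was not at an unadjusted limma p under 0.05 after quantile normalization, cyclic loess or normexp with quantile normalization, and its groups overlapped after the quantile and the normexp settings. Arsa was not under that p after median scaling or without the filter on dim probes, and neither gene was with the mean of all kept probes. With the slide as a term in the fit, Arsb differed by −0.31 and Arsa by 0.25, and neither reached an unadjusted limma p under 0.05.

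The glycan and sulfate ester hydrolases as a class showed no stable direction. Of 9 measured hydrolases of glycans and sulfate esters 2 were higher and 7 lower, with a median of −0.061. That median rested on single animals: leaving out corn oil replicate 3 gave 0.018, corn oil replicate 1 gave −0.02, corn oil replicate 2 gave −0.144, and leaving out the second treated animal gave −0.003. Gla, alpha-galactosidase A, whose lack causes Fabry disease, was the other one that was higher, by 0.32 ± 0.14 (SE) with a limma p of 0.0602 and groups that overlapped. Man2b1, the alpha-mannosidase, differed by −0.14 ± 0.11 (SE) and Glb1, beta-galactosidase, by −0.12 ± 0.105 (SE), with its other probe at 0.012. Neu1, the sialidase, differed by −0.070 ± 0.18 (SE). Gaa, the acid alpha-glucosidase of Pompe disease, differed by −0.061 ± 0.11 (SE), Hexa, the alpha subunit of beta-hexosaminidase, by −0.044 ± 0.11 (SE) and Gusb, beta-glucuronidase, by −0.011 ± 0.12 (SE). The brightest Gusb probe set this sign, since the remaining probes lay at 0.116 and 0.11.

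Genes for lysosomal lipid breakdown differed by no more than 0.098 in either direction. Lipa, the acid lipase that frees cholesterol and fatty acids from lipoprotein lipids, differed by 0.098 ± 0.12 (SE) and by 0.0012 without tricresyl phosphate replicate 2, and Asah1, acid ceramidase, by 0.078 ± 0.088 (SE). Psap, the precursor of the saposins that present sphingolipids to their enzymes, differed by 0.042 ± 0.11 (SE). Npc2, the lumenal cholesterol carrier, differed by 0.017 ± 0.11 (SE). Smpd1, acid sphingomyelinase, and Ppt1, palmitoyl-protein thioesterase, differed by −0.029 ± 0.081 and −0.067 ± 0.10 (SE). With 4 of 6 higher, the median was 0.030, and the groups overlapped in all 6.

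Membrane proteins of the lysosome were higher in 5 of 6, with a median of 0.039. Lamp1, an abundant glycoprotein that lines the lysosomal membrane, was at 5.996, 5.89 and 6.01 with corn oil and at 6.07, 5.885 and 6.065 with tricresyl phosphate. In both groups replicate 2 was the low animal, and the difference was 0.042 ± 0.094 (SE), adjusted limma p 0.935. Scarb2, the receptor that carries glucocerebrosidase to the lysosome, was at −1.73, −1.46 and −1.46 with corn oil and at −1.45, −1.32 and −1.43 with tricresyl phosphate. The nearest animals of the groups, at −1.462 and −1.451, all but touched, and corn oil replicate 1 lay far below the others. The difference was 0.15 ± 0.11 (SE), adjusted limma p 0.814, and without that animal it was 0.062.

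The rest of the membrane proteins overlapped between the groups. Npc1, which exports cholesterol handed over by Npc2, differed by 0.068 ± 0.10 (SE), and all 7 of its probes lay above 0, between 0.068 and 0.538. Mcoln1, the calcium channel of the lysosome, differed by 0.036 ± 0.095 (SE), Lamp2, a partner of Lamp1 needed for chaperone-mediated autophagy, by 0.004 ± 0.093 (SE) and Atp6ap1, an accessory subunit of the proton pump, by −0.079 ± 0.099 (SE).

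**Figure D3:**
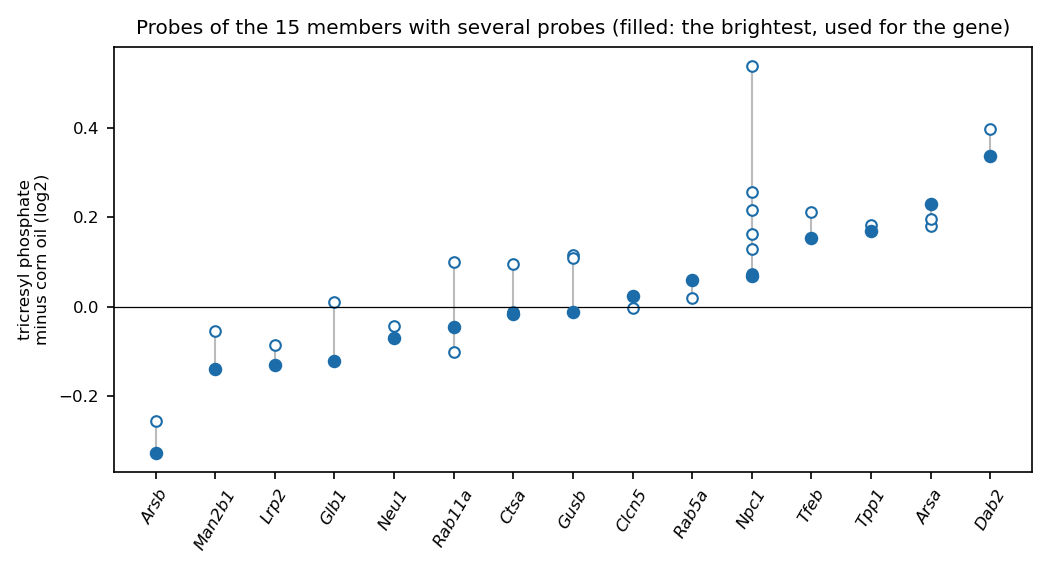
Difference between the groups for every probe (y axis, tricresyl phosphate minus corn oil in log2 units) of the 15 members that have several, ordered by the brightest probe, which is filled and stands for the gene. The probes of Arsb, Arsa, Dab2 and Tpp1 each keep to one side of 0, while those of Glb1, Rab11a, Ctsa, Gusb and Clcn5 lie on both sides.

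Tfeb, the transcription factor gene, was at −0.64, −0.66 and −0.54 with corn oil and at −0.43, −0.20 and −0.74 with tricresyl phosphate. On this brighter probe treated replicates 1 and 2 lay above the vehicle range and replicate 3 below it. The difference was 0.155 ± 0.15 (SE), adjusted limma p 0.847. The other Tfeb probe differed by 0.21 and ordered the treated animals otherwise. It was at −2.44, −2.48 and −2.38 with corn oil and at −2.39, −2.20 and −2.08 with tricresyl phosphate. There treated replicate 3 was the highest animal, and replicate 1 lay within the vehicle range. Without tricresyl phosphate replicate 3 the brighter probe differed by 0.295, and without replicate 2 by 0.028.

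The motif that Tfeb binds was looked for in RefSeq promoters of assembly GRCr8, from 250 bases before to 50 after each gene's start. The table holds 32 of the 39 genes. The letters searched were TCACGTG on both strands, which contain the E-box core CACGTG. They occurred in 8 of the 32 promoters, or 25%, those of Amn, Ctsd, Gaa, Glb1, Lamp1, Mcoln1, Rab5a and Sgsh, and in 3.20% of all 33469 promoters. The core alone occurred in the same 8 members and in 6.42% of all promoters. Arsa, Arsb, Asah1, Ctsb, Hexa, Ppt1 and Psap were not in the table. 4 stretches that lie before the start are shown, since Lamp1 holds the most matches and Ctsd, Gaa and Mcoln1 serve as examples of a protease, a glycan hydrolase and a membrane protein that were measured; capitals mark the core.
Lamp1: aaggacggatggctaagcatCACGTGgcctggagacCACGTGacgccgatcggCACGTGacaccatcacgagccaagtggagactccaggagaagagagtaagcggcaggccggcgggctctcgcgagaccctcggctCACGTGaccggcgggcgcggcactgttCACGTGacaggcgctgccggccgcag
Mcoln1: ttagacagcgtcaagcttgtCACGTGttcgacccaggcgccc
Ctsd: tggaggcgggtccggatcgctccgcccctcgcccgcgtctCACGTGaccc
Gaa: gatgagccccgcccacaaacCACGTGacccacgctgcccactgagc
In GRCr8 these are chr16:83075076-83075266 on the minus strand, chr12:6358216-6358257 on the plus strand, chr1:206968822-206968871 on the minus strand and chr10:105028268-105028313 on the plus strand. The Lamp1 stretch holds 5 cores and the others 1 each. Outside these stretches, the Ctsd promoter holds a further core 157 bases before the start and the Mcoln1 promoter a further one after the start. The 7 measured genes with a match differed by −0.12 to 0.059, with a median of 0.036, 4 of them higher and 3 lower. The 23 measured genes whose promoter is listed without a match differed by −0.14 to 0.34, with a median of 0.004. A match in these letters describes the sequence and does not show binding.

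More genes were lower than higher with tricresyl phosphate. In the brightest 20% of genes 76% were lower, with a median of −0.072, and in the dimmest 20% it was 59.7%, with a median of −0.076. Of the members 25 belong to the brightest 20%, with a median of −0.017 and 15 lower. Set against genes of like level in 40 bins of signal, 28 of the 37 members lay above the median of their bin and 9 below. Dab2, Arsa and Tpp1 lay above the 95th percentile of their bins and Arsb below the 5th. Dab2 exceeded 99.2% of the genes in its bin. The split moved with the scaling: 27 were higher and 10 lower after quantile normalization, 28 and 9 after cyclic loess, 29 and 8 after normexp background correction with quantile normalization. Scaling to the median, which moved the median of all genes from −0.038 to −0.058 and every member down by the same amount, gave 16 higher and 21 lower. The median over the members was then 0.063, 0.057, 0.054 and −0.017, and no member passed the adjusted limma threshold under any of them.

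**Figure D4:**
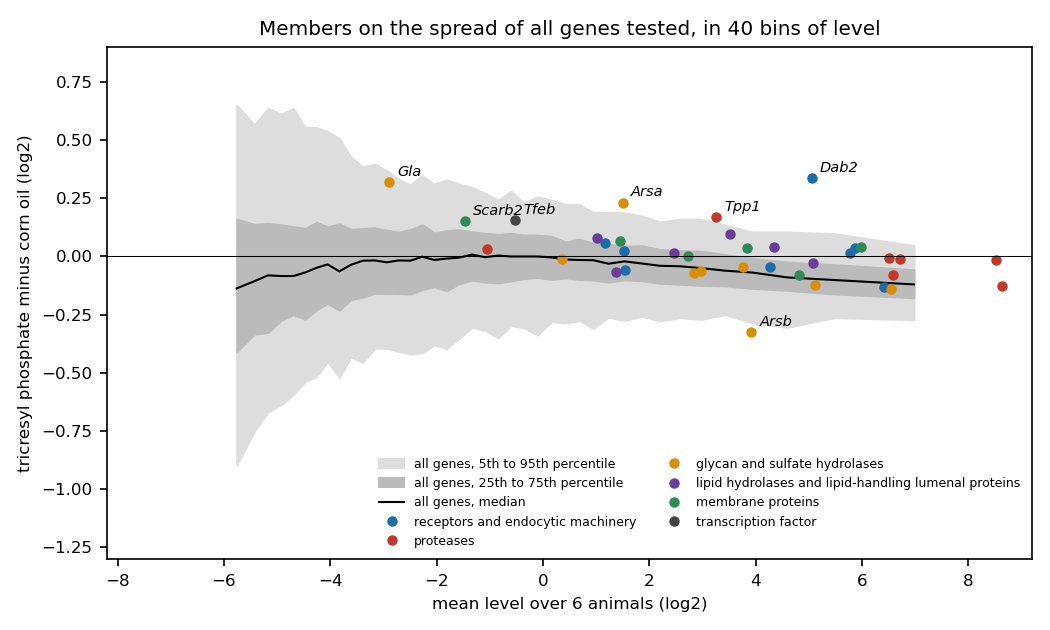
Difference between the groups (y axis, tricresyl phosphate minus corn oil, log2) against mean level over 6 animals (x axis, log2) for the 37 members, coloured by role. The line and the bands give the median, the 25th to 75th and the 5th to 95th percentile of all genes tested in 40 bins of level; Dab2, Arsa and Tpp1 lie above the outer band and Arsb below it.

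Levels also varied between animals of one group. Corn oil replicate 2 was the lowest of the 3 vehicle animals in 22 of 37 members, or 59.5%, against 34.6% of the brightest 20% of genes. Tricresyl phosphate replicate 2 was the lowest of the treated animals in 20, or 54.1%, against 36.7%. Both were lowest in 14 members, or 37.8%, against 14% of the brightest 20%, a count made after the values were seen. These were Ctsd and Lgmn, 7 of the 9 glycan hydrolases (Hexa, Man2b1, Gaa, Gla, Neu1, Arsa and Arsb), Asah1, Smpd1 and Npc2, and Lamp1 and Lamp2, and none of the 8 receptor and endocytosis genes. Lgmn showed it most, where replicate 2 minus the mean of the other 2 in its group was −0.454 with corn oil and −0.468 with tricresyl phosphate. Hepatocyte markers, at mean levels of −2.15, 0.31 and −1.56 in the vehicle animals and −1.02, −0.92 and −0.018 in the treated animals, were highest in corn oil replicate 2 but not in tricresyl phosphate replicate 2. Their part in the pattern was not tested.

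**Figure D5:**
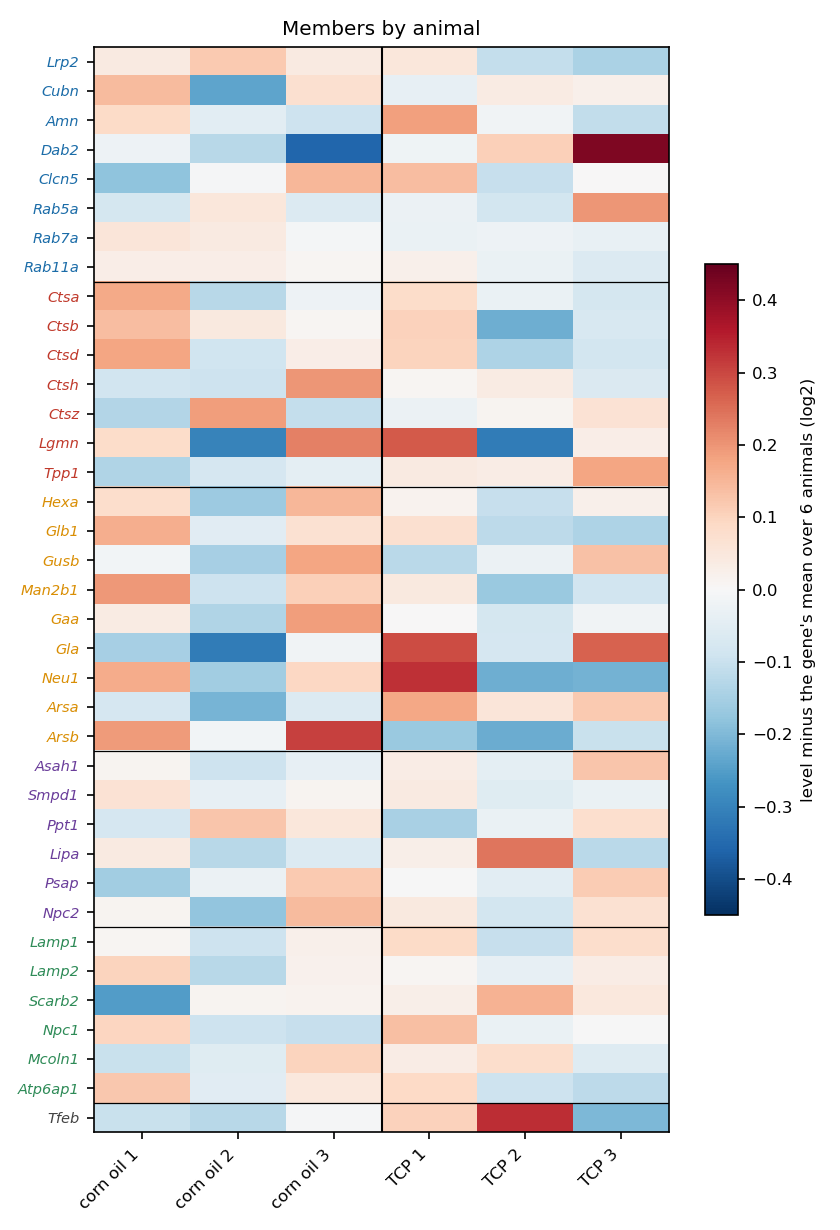
Level of each of the 37 members in each animal as the deviation from its mean over the 6 animals (colour, log2 units; red is higher), with corn oil on the left, tricresyl phosphate (TCP) on the right and members grouped and coloured by role. Corn oil 2 and TCP 2 are both blue in most glycan hydrolases and, among the proteases, in Ctsd, Lgmn and more faintly Ctsa. The row of Dab2 runs from blue in corn oil 3 to red in TCP 3.

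Marker lists of 8 cell types were followed. All 12 proximal tubule markers were measured, 9 of them lower and 3 higher, with a median of −0.097 and groups that overlapped in all but Slc13a3 and Gatm, both lower. Their summed signal, in units of the 75th percentile, was 2015.4 to 2109.68 with corn oil and 1709.52 to 2039.66 with tricresyl phosphate. All 12 belong to the brightest genes, the set described above in which 76% were lower, with a median of −0.072. The share of these markers that were lower was near that background. Over all genes the summed signal was 229615.52 to 243187.16 with corn oil and 209299.01 to 231248.1 with tricresyl phosphate. Macrophages, which are rich in lysosomes, were followed through 12 markers. Of these 11 were measured, all but Cd163, with 9 lower and 2 higher and a median of −0.131. C1qa was the one without overlap, with treated animals below vehicle animals and a difference of −0.277 ± 0.098 (SE) with a limma p of 0.0289 (adjusted 0.811). Their summed signal was 82.95 to 126.47 with corn oil and 83.95 to 92.6 with tricresyl phosphate. Blood cell markers had the lowest median, −0.339, with all 5 measured genes lower and a summed signal of 530.95 to 593.27 with corn oil and 425.97 to 532.19 with tricresyl phosphate. Hbb, Alas2 and Epb42 did not overlap and had unadjusted limma p-values of 0.0322, 0.0167 and 0.0111 (each adjusted 0.811). The medians were 0.021 for the thick ascending limb, 0.098 for the collecting duct, −0.032 for podocytes, −0.039 for endothelium and 0.215 for hepatocytes, with no gene of these lists at an unadjusted p under 0.05. In bulk tissue, fewer cells of a type and less RNA per cell cannot be told apart, and the part of these cells in the member values was not tested. The arrays correlated between 0.987 and 0.991 over all genes, within and between groups alike, and corn oil replicate 1 lay alone on another slide and scan than the other 5.

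Other genes of the same pathways gave no call either, with 0 past the adjusted limma threshold in each of 5 further lists. Of 22 measured genes of apical endocytosis 10 were higher and 12 lower, with a median of −0.041. Rab11b, a relative of Rab11a, was at 0.84, 0.81 and 1.01 with corn oil and at 1.41, 1.104 and 1.1 with tricresyl phosphate, higher in all treated animals, by 0.32 ± 0.12 (SE) with a limma p of 0.04 (adjusted 0.811). Rab5c differed by −0.20 ± 0.104 (SE), lower in all treated animals. Of 25 other lysosomal hydrolases 13 were higher and 12 lower, with a median of 0.001. Ctss, a cathepsin of antigen-presenting cells, was at 2.41, 2.57 and 2.42 with corn oil and at 2.18, 2.30 and 2.20 with tricresyl phosphate, lower in all treated animals, by −0.24 ± 0.091 (SE) with a limma p of 0.0357 (adjusted 0.811). Gm2a, the activator that works with beta-hexosaminidase, differed by 0.23 ± 0.10 (SE), higher in all treated animals.

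The remaining lists held no gene at an unadjusted limma p under 0.05. Among 17 other lysosomal membrane and delivery genes 9 were higher and 8 lower, with a median of 0.073. Slc17a5, the sialic acid exporter, differed by −0.45 ± 0.21 (SE) and Cln3 by 0.31 ± 0.20 (SE), each with groups that overlapped. Subunits of the proton pump that acidifies endosomes and lysosomes were higher in 6 and lower in 9 of 15, with a median of −0.030. Atp6v1a differed by −0.26 ± 0.15 (SE) and Atp6v0d1 by 0.13 ± 0.097 (SE). Of 17 regulators around Tfeb and the mTORC1 complex 6 were higher and 11 lower, with a median of −0.072. Lamtor4, part of the Ragulator complex on the lysosome, differed by −0.199 ± 0.10 (SE) and Rptor, which encodes the mTORC1 subunit raptor, by −0.16 ± 0.10 (SE).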

How the data were processed

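RNA from 6 animals was measured on 1-colour Agilent arrays, 1 per animal. Agilent Feature Extraction read the scans; its version is 10.7.1.1 per the file headers, while the submitters' processing notes give 10.7. Each deposited file holds linear intensity: a processed signal (background-subtracted and detrended) and median spot and background signals. In the authors' value table each array's processed signals are scaled by a constant, checked for signals over 100, and are linear and uncentred. Median processed signals were 102.6 to 133.2 over backgrounds of 33.0 to 41.0, no spot was saturated, and 77 outlier spots were left out. With 3 arrays a group, their number limits precision. Nothing in the labels says more of how the animals were kept apart, so p-values set a difference against the spread between these samples only.

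Values are log2 processed signal minus the 75th percentile of the array. Of 61537 non-control probes, 43099 were well above background on at least 3 arrays and kept, and the brightest kept probe stood for a gene. Symbols came from RefSeq (GRCr8) by accession, for 28206 probes. The arrays' own annotation build is rn4, so no probe coordinates are given. The 2-group test was limma's moderated one (version 3.58.1; R 4.3.3; lmFit, then eBayes). It is two-sided, p-values were adjusted by Benjamini-Hochberg over 31637 genes, and the procedure was tested on simulated data. Members and lists were chosen with earlier results of these data known. Values per animal are given for members at an unadjusted p under 0.05, those whose groups do not overlap, and Lrp2, Cubn, Amn, Dab2, Ctsb, Ctsd, Lamp1 and Tfeb; of each further list the 2 genes with the smallest p are named. Alternatives were other normalizations, filters, probe rules and variance models, the authors' table, slide and replicate blocks and leaving out animals. The median spot signal was used for normexp (offset 50). Same-numbered animals are different animals and their deviations from the group means correlated at 0.087, −0.051 and −0.044, so numbers were not treated as pairs.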

Additional observations from a re-analysis of the deposited data

How the results depend on the processing

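No member passed the adjusted limma threshold under any alternative, with a lowest adjusted p of 0.687. The filters on dim probes, the variance model and the replicate block leave a member's difference as it is, the authors' table is a rescaling, and the slide block gives the same differences as leaving out corn oil replicate 1, so these say little about direction. Under the other alternatives Lrp2, Dab2, Rab7a, Tpp1, Glb1, Gla, Arsa, Arsb, Asah1, Ppt1, Lipa, Scarb2, Npc1 and Tfeb kept their direction. Apart from median scaling, which shifts every gene alike, the cause of the reversals below was not tested. Quantile normalization reversed Rab11a (0.034), Ctsa (0.074), Ctsd (0.041), Ctsh (0.11), Lgmn (0.115), Hexa (0.030), Smpd1 (0.063) and Atp6ap1 (0.013), and the median over membrane proteins moved to 0.099. Cyclic loess reversed Rab11a (0.026), Ctsa (0.14), Ctsb (0.031), Ctsd (0.036), Ctsh (0.11), Lgmn (0.11), Hexa (0.018), Smpd1 (0.057) and Atp6ap1 (0.0023). Normexp with quantile normalization reversed Rab11a (0.020), Ctsa (0.10), Ctsd (0.024), Ctsh (0.11), Lgmn (0.14), Hexa (0.029), Gusb (0.0037), Man2b1 (0.0001), Smpd1 (0.060) and Atp6ap1 (0.0043). It put 29 members higher and 2 genes past the adjusted threshold, and moved the membrane protein median to 0.098. It put 4 members (Dab2, Tpp1, Arsa and Lamp1) at an unadjusted limma p under 0.05, against 1799 of 31637 genes. Median scaling reversed Cubn (−0.0041), Npc2 (−0.0035) and Lamp2 (−0.017) and put 1 member, Arsb, at that p, against 1896 genes. The mean of all kept probes reversed Ctsa (0.0225) and Gusb (0.0715) and put 1 member, Dab2, at that p, against 1773 genes. Testing dim probes too put 1 there, Arsb, against 1968 of 45433 genes. The groups did not overlap in 8 members with normexp (11.6% of all genes), 4 with median scaling (12.9%) and 9 with the mean of all kept probes (11.8%). An intensity trend with robust variance gave 2 genes past the adjusted threshold, none of them a member.

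With the slide as a block, 0 members were at an unadjusted limma p under 0.05, against 1418 of 31637 genes. Clcn5 (−0.060), Ctsa (0.065), Ctsz (−0.024), Lgmn (0.033), Psap (−0.026) and Mcoln1 (−0.0043) reversed with this block. The same-numbered animals are not pairs. With the replicate block, 0 members passed the adjusted threshold. At an unadjusted limma p under 0.05 there were 2 members, Gla and Arsb, against 1927 of 31637 genes. Chosen after seeing the data, leaving out the 2 animals highest in hepatocyte markers reversed Cubn (−0.11), Psap (−0.0059), Npc2 (−0.097), Lamp1 (−0.023) and Lamp2 (−0.073). It put 1 member, Arsb, at an unadjusted limma p under 0.05, against 1513 of 30550 genes, and 14 members without overlap, against 33.9% of all genes.

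Without each animal in turn, 0 to 1 genes passed the adjusted threshold, 0 to 2 members were at an unadjusted p under 0.05 and 7 to 12 members did not overlap, 11 without corn oil replicate 2 and 12 without tricresyl phosphate replicate 1, while 18.8% to 27.8% of all genes did not overlap. Over all genes, 1377 (without corn oil replicate 1) to 2167 (without tricresyl phosphate replicate 1) were at that unadjusted limma p, of 31093 to 31484 tested. Members at that p were Gla and Arsa without corn oil replicate 3, Tfeb and Arsb without tricresyl phosphate replicate 3, Arsb without corn oil replicate 2, Dab2 without tricresyl phosphate replicate 1, Gla without tricresyl phosphate replicate 2, and 0 without corn oil replicate 1. Differences ran for Cubn from −0.099 to 0.091, Amn from −0.044 to 0.10, Clcn5 from −0.060 to 0.105, Rab5a from −0.026 to 0.12, Ctsa from −0.083 to 0.065, Ctsh from −0.060 to 0.084, Ctsz from −0.024 to 0.14, Lgmn from −0.16 to 0.15, Hexa from −0.14 to 0.019, Gusb from −0.088 to 0.074, Gaa from −0.14 to 0.018, Neu1 from −0.25 to 0.022, Psap from −0.026 to 0.11, Npc2 from −0.068 to 0.092, Lamp2 from −0.058 to 0.055 and Mcoln1 from −0.0043 to 0.095. Among members that kept their direction, the range was 0.0012 to 0.18 for Lipa, 0.0056 to 0.10 for Lamp1, 0.017 to 0.13 for Npc1, 0.034 to 0.12 for Asah1, 0.028 to 0.295 for Tfeb, 0.062 to 0.196 for Scarb2, 0.12 to 0.19 for Tpp1, 0.18 to 0.26 for Arsa, 0.24 to 0.44 for Gla and 0.21 to 0.43 for Dab2. It was −0.15 to −0.0098 for Ctsd, −0.21 to −0.046 for Ctsb, −0.12 to −0.0115 for Ppt1, −0.056 to −0.0034 for Smpd1, −0.068 to −0.025 for Rab11a, −0.075 to −0.0435 for Rab7a, −0.14 to −0.039 for Atp6ap1, −0.19 to −0.093 for Lrp2, −0.19 to −0.070 for Glb1, −0.22 to −0.0765 for Man2b1 and −0.41 to −0.25 for Arsb. With 3 animals a group, intervals of 3 members reach beyond 1.5-fold.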

Other observations

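The cholesterol exporter gene Npc1 has 7 probes, all to the same accession and all higher on average with tricresyl phosphate. The brightest, used above, differed by 0.068. A dim one differed by 0.538 with an unadjusted limma p of 0.0097. On that probe the vehicle animals were at −4.97, −4.52 and −4.66 and the treated animals at −4.16, −4.33 and −4.04, so the groups did not overlap. The groups also did not overlap on the probes that differed by 0.162 and 0.257, and they overlapped on the other 4. The 7 probes read the same animals, so they are not independent of each other. The dim probe that differed by 0.538 was singled out after its values were seen. Its mean level was −4.447. In the bin of genes of like level, at a mean of −4.477, the 95th percentile of the differences was 0.555, so 0.538 lay below it. Of the dimmest genes, 9.53% were at an unadjusted limma p under 0.05, and the groups did not overlap in 11%.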
